A study of Homo sapiens with 6 samples.

Results

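The BCL2 family genes examined here were 10 genes chosen by symbol: the anti-apoptotic members BCL2, BCL2L1 and MCL1, the effectors BAX and BAK1, and the BH3-only members BBC3, PMAIP1, BCL2L11, BID and BAD. Each was found by matching the Ensembl identifier of its row to its symbol, and each had a single row among the 39327 rows of the count table that carry an identifier. CAL62 is an established human cell line of anaplastic thyroid carcinoma (ATC), labelled WT for genotype in every library. Cells received either 50 nM erianin, a natural compound from Dendrobium, or an equal amount of its solvent DMSO, and total RNA was taken after 48 h. Both groups hold 3 libraries labelled as replicates 1, 2 and 3, all from this single cell line and with no other agent. The labels do not say whether replicates came from separate cultures, so p-values measure the spread between these libraries, which may be technical.

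BCL2 family proteins decide whether the outer membrane of the mitochondrion stays closed. Anti-apoptotic members hold the effectors BAX and BAK in check, BH3-only proteins occupy the groove of the anti-apoptotic members or engage the effectors directly, and freed effectors form pores through which cytochrome c leaves and starts the caspase cascade. Their RNA is one layer of control only, since MCL1 and NOXA (the product of PMAIP1) are short-lived proteins, BAD is held inactive by phosphorylation, and BID is activated by cleavage. Bax and Bcl-2 are the members that the study followed as proteins, and the question put to the RNA was which members differed between erianin and DMSO.

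Reads counted on rows with an identifier ranged from 25776301 to 34107727 per library. Of counts between 1 and 20, from 64.4% to 69.5% were even, against 49% to 51% of counts over 1000; whether both ends of a read pair were counted separately is not given in the sources used here, so the counting errors quoted are lower limits. DMSO replicate 3 stood apart: its Euclidean distance to DMSO replicates 1 and 2 on log2 CPM (counts scaled to the library total with TMM factors) was 64.1 and 62.9, against 37.2 between those 2 libraries and at most 29 among the erianin libraries. Results that rest on it are given with and without it. Of 7 thyroid follicular markers, PAX8 was abundant, at 419.1 to 739.2 CPM, and FOXE1 was low, at 1.07 to 2.28 CPM, while TG and SLC5A5 did not exceed 0.381 CPM and TSHR and NKX2-1 had no counts in any library. The keratin genes KRT8, KRT18 and KRT19 and the mesenchymal genes VIM and FN1 were abundant, and the leukocyte gene PTPRC and the endothelial gene PECAM1 did not exceed 0.293 CPM. PAX8 fell with erianin (log2 fold change -0.66, edgeR adjusted p 0.00403), FN1 was at -0.80 (0.00761, and up to 0.0559 without 1 library) and VIM at -0.47 (0.0300, and up to 0.131 without 1 library), and their part in the results on the members was not tested. As these are bulk samples, fewer cells of a kind and less RNA per cell cannot be told apart.

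The stretches of DNA before the RefSeq transcription starts are shown for the genes with the clearest differences. Transcription factor motifs were looked for in them on both strands. Of 5 motifs searched, 4 are described here: TGACG (the core of a cAMP response element, bound by ATF and CREB proteins), TGATGNAA (the composite element of ATF4 with C/EBP proteins), GTAAACA (FOXO) and GGGCGG (the GC box). Capitals mark matches to any of these except the GC box, and each line holds the 250 bases before the transcription start, 5′ to 3′ along the gene, from RefSeq promoters on GRCh38.p14.
PMAIP1 (chr18:59899746-59899995, plus strand): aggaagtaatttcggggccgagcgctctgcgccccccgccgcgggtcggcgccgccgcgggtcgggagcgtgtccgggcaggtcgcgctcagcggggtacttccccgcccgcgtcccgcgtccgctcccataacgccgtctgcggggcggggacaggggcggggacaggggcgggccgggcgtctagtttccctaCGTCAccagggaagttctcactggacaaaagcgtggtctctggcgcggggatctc
BID (chr22:17774666-17774915, minus strand): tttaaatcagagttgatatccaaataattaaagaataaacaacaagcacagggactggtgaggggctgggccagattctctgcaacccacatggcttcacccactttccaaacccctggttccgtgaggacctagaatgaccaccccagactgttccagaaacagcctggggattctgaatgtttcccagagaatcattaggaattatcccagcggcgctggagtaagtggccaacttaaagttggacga
BMF (chr15:40108880-40109129, minus strand): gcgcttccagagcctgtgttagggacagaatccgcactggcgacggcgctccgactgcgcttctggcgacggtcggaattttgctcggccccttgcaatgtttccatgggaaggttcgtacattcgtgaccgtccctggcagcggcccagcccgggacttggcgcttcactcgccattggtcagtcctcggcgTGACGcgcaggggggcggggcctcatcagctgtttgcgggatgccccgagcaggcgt
BCL2A1 (chr15:79971197-79971446, minus strand): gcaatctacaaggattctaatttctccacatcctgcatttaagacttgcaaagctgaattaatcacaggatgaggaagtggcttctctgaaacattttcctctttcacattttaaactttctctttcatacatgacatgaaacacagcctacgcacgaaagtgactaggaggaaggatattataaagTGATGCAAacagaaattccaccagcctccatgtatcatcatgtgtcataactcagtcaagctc
PMAIP1 and BID are the members that passed the adjusted p threshold, and BMF and BCL2A1 are family genes outside the 10 that passed both thresholds. CGTCA in PMAIP1, at position -55 from the start, is TGACG on the other strand. BMF held TGACG at position -57, and BCL2A1 held TGATGCAA at position -63. BID held none of the motifs in capitals, and none of the matches in capitals overlapped a match of another motif. RefSeq promoters were at hand for 9 of the 10 members, all but MCL1, and where a gene had several, as BID had 5, the one nearest to the annotated 5′ end was taken. In the windows of 250 bases before to 50 after the start, TGACG was found in 5 members (BCL2, BCL2L1, BAX, PMAIP1 and BAD), GTAAACA in 1 (BCL2L11, at position -223), GGGCGG in 5 and TGATGNAA in 0. Of 35116 RefSeq promoters of that length, 24.6% held TGACG, 3.42% GTAAACA, 45.0% GGGCGG and 3.62% TGATGNAA. Of the 5 members with TGACG, BCL2 and PMAIP1 had all erianin libraries above DMSO, BCL2L1 had all below, and BAX and BAD overlapped.

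The members differed little in their RNA after 48 h of erianin. None of the 10 passed both thresholds of the study's comparison, namely an adjusted p below 0.05 together with a log2 fold change beyond 0.5 in either direction. Over all 12821 genes tested with edgeR's quasi-likelihood test, 8.73% passed both, 5.37% higher and 3.36% lower with erianin. By the adjusted p alone, 2 members passed, PMAIP1 higher and BID lower, against 14.9% of all genes (7.22% higher, 7.69% lower). At an unadjusted p under 0.05 there were 6 members, 3 in each direction, against 30.9% of all genes. DESeq2 likewise placed no member past both thresholds, and 3 past the adjusted p alone (PMAIP1, BID and MCL1), against 21.6% of all genes.

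The log2 fold changes of the members ran from -0.33 to 0.38, with a median of 0.08 against 0.00 over all tested genes, and a median absolute value of 0.31 against 0.22. The erianin and DMSO libraries did not overlap in CPM for 7 of the 10 members, against 38.7% of all tested genes. In 4 of them (BCL2, BAK1, PMAIP1 and BCL2L11) every erianin library was above every DMSO library, and in 3 (BCL2L1, MCL1 and BID) every one was below. The 3 members whose groups overlapped were BAX, BBC3 and BAD.

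**Figure D1:**
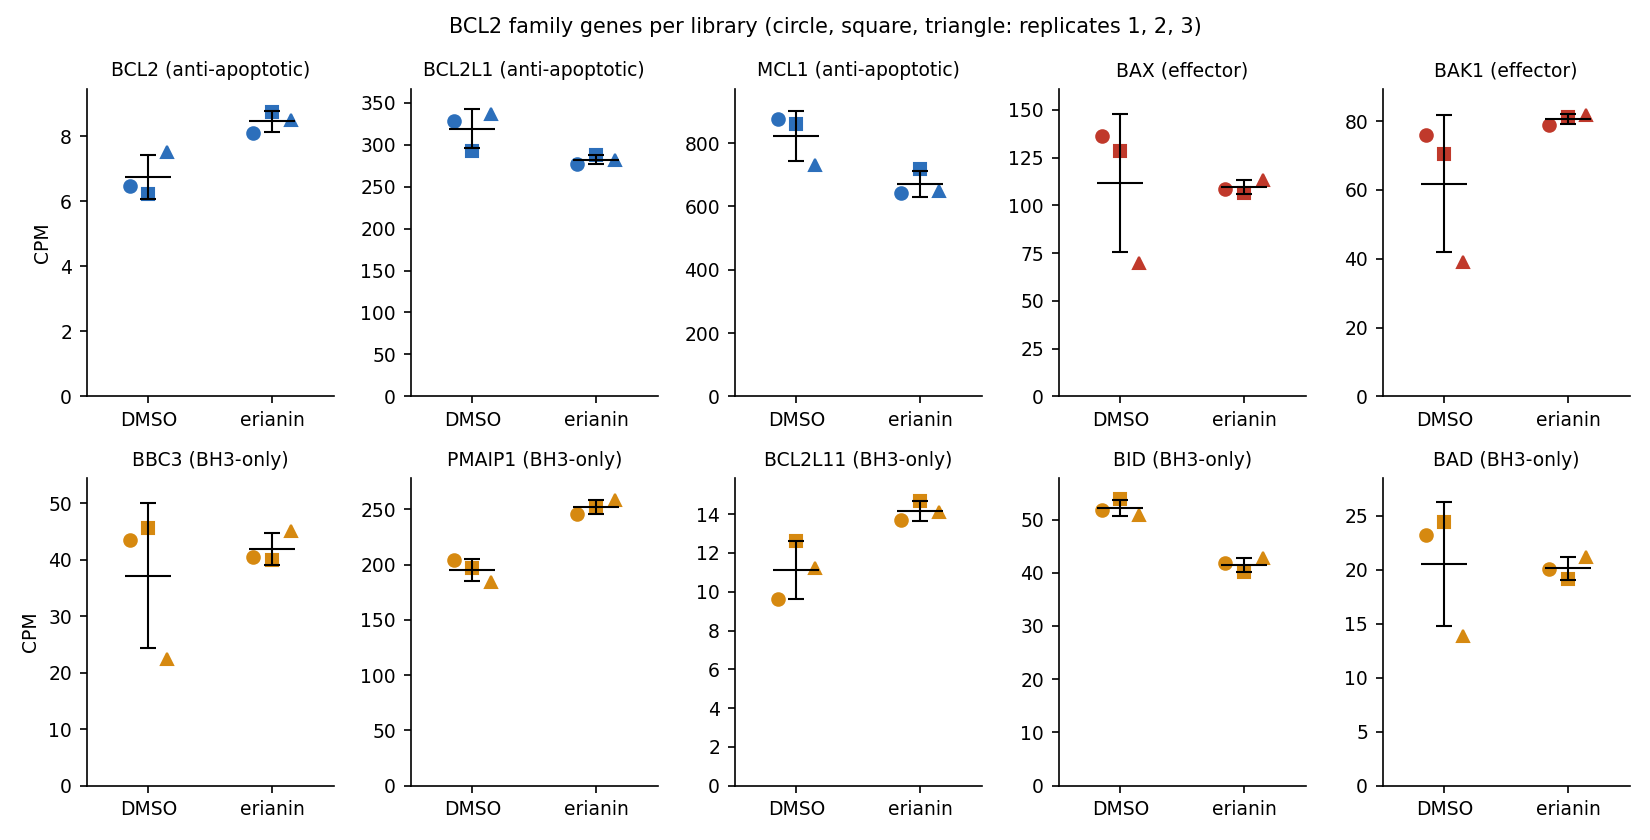
CPM of each member (y axis, from 0) in the 3 DMSO and 3 erianin libraries; points are libraries, horizontal lines the means and bars the SD. DMSO replicate 3 (triangle) is the lowest DMSO library for BAX, BAK1, BBC3 and BAD, and PMAIP1 and BID show separate groups in opposite directions.

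MCL1 (GRCh38, GENCODE 29, chr1:150574551-150579738, minus strand) encodes an anti-apoptotic protein that binds BAK, BIM and NOXA, and was the most abundant member. Its level was 877.3, 858.8 and 731.1 CPM in DMSO replicates 1 to 3 and 643.4, 718.8 and 648.5 CPM in erianin replicates 1 to 3. The highest erianin library thus lay just under the lowest DMSO library. The mean was 18.5% lower with erianin (log2 fold change -0.30, SE 0.09, 95% interval -0.51 to -0.08), with an edgeR adjusted p of 0.0752, which missed the threshold. DESeq2 gave an adjusted p of 0.0451 for the same gene. With 1 library left out the edgeR adjusted p ran from 6.62e-09 (without DMSO replicate 3) to 0.252. In TPM, which is scaled to gene length, the groups of MCL1 overlapped, at 414.9 to 542.4 with DMSO and 444.1 to 489.8 with erianin. There limma on log2(TPM + 1) gave -0.09 (adjusted p 0.628), where the median of all genes was 0.18. Counts per gene do not separate the long, anti-apoptotic transcript of MCL1 from its shorter splice forms, and the same holds for BCL2L1.

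BCL2L1 (chr20:31664452-31723989, minus strand) encodes BCL-XL, the anti-apoptotic protein of the outer membrane and the antagonist of BAX and BAK. It stood at 328.2, 292.5 and 336.3 CPM in the DMSO libraries and at 277.4, 287.1 and 282.2 CPM in the erianin libraries. The gap between the groups was small, 292.5 against 287.1 CPM, and the log2 fold change of -0.18 (SE 0.08) had an edgeR adjusted p of 0.161. In limma on log2(TPM + 1) the value was 0.02, where the median of all genes was 0.18. Of the exon bases of BCL2L1, 43.0% are shared with the antisense gene ABALON, which had 493 counts over the 6 libraries against 57348 for BCL2L1.

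BCL2 (chr18:63123346-63320128, minus strand), the founding member, was scarce in these cells. Its 158 to 306 counts per library carry a counting error of at least 7.96% at the lowest. BCL2 was at 6.49, 6.22 and 7.51 CPM with DMSO and at 8.11, 8.76 and 8.51 CPM with erianin, so all erianin libraries were above all DMSO libraries. The difference was 25.4%, a log2 fold change of 0.33 (SE 0.12, 95% interval 0.04 to 0.61) with an edgeR adjusted p of 0.120. The 3 anti-apoptotic members therefore did not share a direction: BCL2 was nominally higher, and BCL2L1 and MCL1 nominally lower, each with an unadjusted p under 0.05 (0.0311, 0.0495 and 0.0147 by edgeR).

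The effectors BAX (chr19:48954815-48961798, plus strand) and BAK1 (chr6:33572547-33580293, minus strand), which build the pore itself, both had 1 DMSO library far below the other two. BAX was at 136.5, 128.5 and 70.1 CPM in the DMSO libraries and at 108.4, 106.5 and 113.5 CPM with erianin. The erianin libraries lay between DMSO replicate 3 and the other DMSO libraries, and the log2 fold change was -0.03 (SE 0.22, 95% interval -0.55 to 0.49, edgeR adjusted p 0.951). Without DMSO replicate 3 it was -0.28 (SE 0.05, edgeR adjusted p 5.94e-06), so BAX was then lower with erianin by a difference under the fold threshold. BAK1 was at 76.0, 70.3 and 39.0 CPM with DMSO and at 78.8, 81.2 and 81.7 CPM with erianin. Its groups did not overlap, and its log2 fold change of 0.38 was the largest of the members, yet the interval ran from -0.14 to 0.90 and the edgeR adjusted p was 0.289. Without DMSO replicate 3 the value was 0.14 (SE 0.05, edgeR adjusted p 0.0259).

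PMAIP1 (chr18:59899948-59904306, plus strand), which encodes NOXA, a BH3-only protein that binds MCL1 and speeds its degradation, gave the smallest adjusted p of the members. It was at 203.7, 196.9 and 184.6 CPM with DMSO and at 245.6, 251.9 and 258.6 CPM with erianin, with the means 195.1 ± 9.67 and 252.0 ± 6.47 (SD, n = 3 each). All 3 erianin libraries were above all 3 DMSO libraries, by 29.2% on the fitted means. The log2 fold change was 0.37 (SE 0.07, 95% interval 0.21 to 0.53, edgeR adjusted p 0.0145), under the fold threshold. The adjusted p passed without DMSO replicate 1 (0.0394) or 3 (6.60e-08), and it was 0.0518 without DMSO replicate 2 and 0.0774, 0.0827 and 0.0917 without erianin replicates 1, 2 and 3.

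BID (chr22:17734138-17774770, minus strand), which links death receptors to mitochondria once caspase-8 has cleaved its protein, was the member that was lower at an adjusted p under 0.05. It was at 51.8, 53.8 and 50.9 CPM with DMSO and at 41.8, 40.1 and 42.7 CPM with erianin, with the means 52.2 ± 1.52 and 41.5 ± 1.30 (SD, n = 3 each). The groups did not overlap in CPM, and the fitted mean was 20.4% lower (log2 fold change -0.33, SE 0.08, 95% interval -0.51 to -0.15, edgeR adjusted p 0.0296). Without DMSO replicate 3 the adjusted p was 8.38e-06. It was 0.0820 and 0.0940 without DMSO replicates 1 and 2, and 0.117, 0.140 and 0.120 without erianin replicates 1, 2 and 3. With upper-quartile factors BID was at -0.28 (edgeR adjusted p 0.0529). In TPM the groups of BID overlapped, at 12.6 to 14.6 with DMSO and 11.9 to 13.0 with erianin, and limma on log2(TPM + 1) gave -0.12 (adjusted p 0.322), where the median of all genes was 0.18.

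BCL2L11 (chr2:111119378-111168447, plus strand) encodes BIM, a BH3-only protein that binds all anti-apoptotic members. It was at 9.61, 12.6 and 11.2 CPM with DMSO and at 13.7, 14.7 and 14.1 CPM with erianin. No erianin library fell within the DMSO range, and the log2 fold change was 0.34 (SE 0.13, 95% interval 0.05 to 0.64) with an edgeR adjusted p of 0.112. BBC3 (chr19:47220822-47232766, minus strand), which encodes PUMA, a BH3-only protein that binds all anti-apoptotic members, was at 43.4, 45.6 and 22.4 CPM with DMSO and at 40.5, 40 and 45.1 CPM with erianin. Its groups overlapped (log2 fold change 0.17, SE 0.24, edgeR adjusted p 0.682), and without DMSO replicate 3 the value was -0.09 (edgeR adjusted p 0.229).

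BAD (chr11:64269830-64284704, minus strand), the BH3-only antagonist of BCL2 and BCL-XL that 14-3-3 proteins hold when it is phosphorylated, followed the same course as BAX. It was at 23.2, 24.4 and 13.9 CPM with DMSO and at 20.1, 19.1 and 21.2 CPM with erianin. The erianin libraries again lay between DMSO replicate 3 and the other DMSO libraries, with a log2 fold change of -0.02 (SE 0.20, edgeR adjusted p 0.956). Without DMSO replicate 3 it was -0.25 (SE 0.08, edgeR adjusted p 0.00931). BAD shares 23.7% of its exon bases with GPR137 on the opposite strand, which had 8859 counts over the 6 libraries against 3887 for BAD. Whether strand was used in counting is not stated, so reads of the 2 genes may be mixed.

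**Figure D2:**
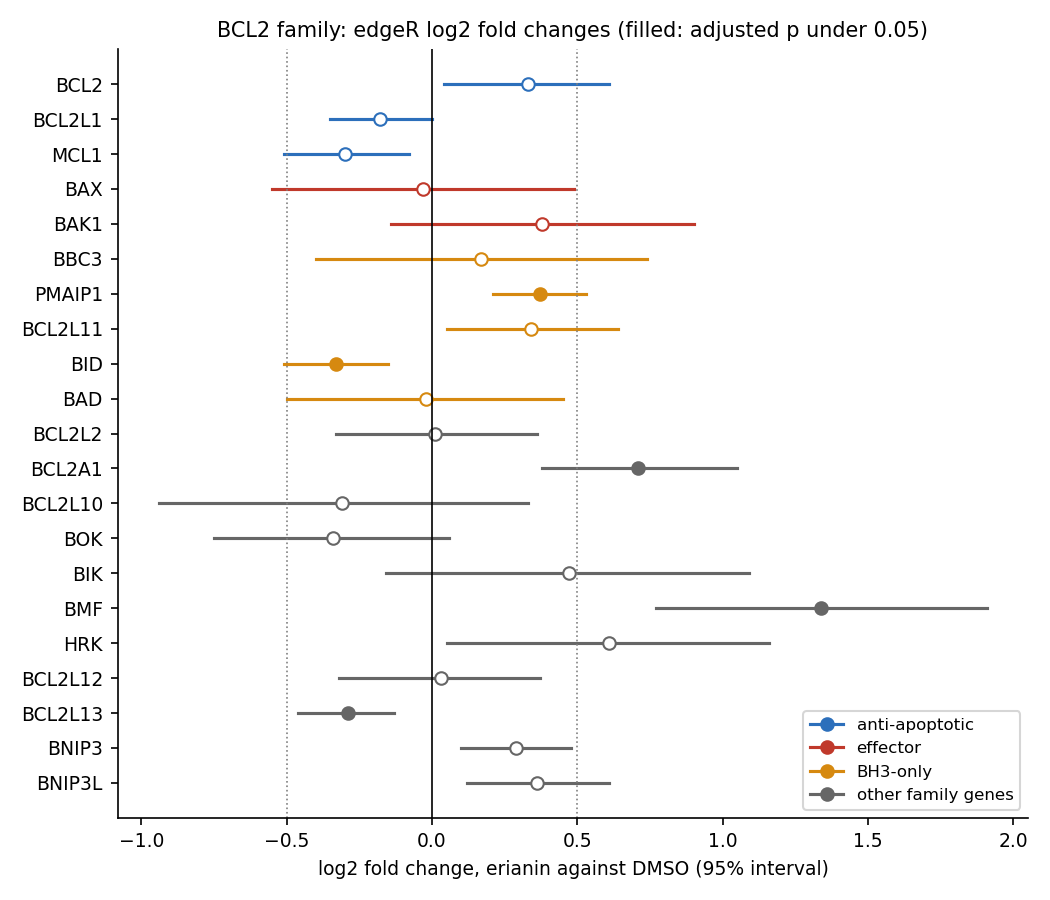
Log2 fold change, erianin against DMSO (x axis), with its 95% interval from edgeR, for the 10 members and the 11 other family genes tested; filled points have an adjusted p under 0.05 and dotted lines mark ±0.5. Only BMF and BCL2A1 are both filled and beyond a dotted line, and the 10 members all lie within -0.33 to 0.38.

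The low values of DMSO replicate 3 fell on particular members. BAX, BAK1, BBC3 and BAD, the 4 members whose transcripts have the highest GC content (58.7% to 65.0%), were at 0.504 to 0.583 of the mean of DMSO replicates 1 and 2 in that library. The other 6 members, at 45.9% to 55.7% GC, were at 0.842 to 1.18 of it. The same held in weaker form over all tested genes: the median ratio was 0.806 over the 2294 genes in the first GC range and 1.01 over the 4506 genes in the second. Over the 10 members Spearman's rho between GC content and the ratio was -0.709, a description over genes that share the same 3 libraries. The part of base composition in these values was not tested.

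**Figure D3:**
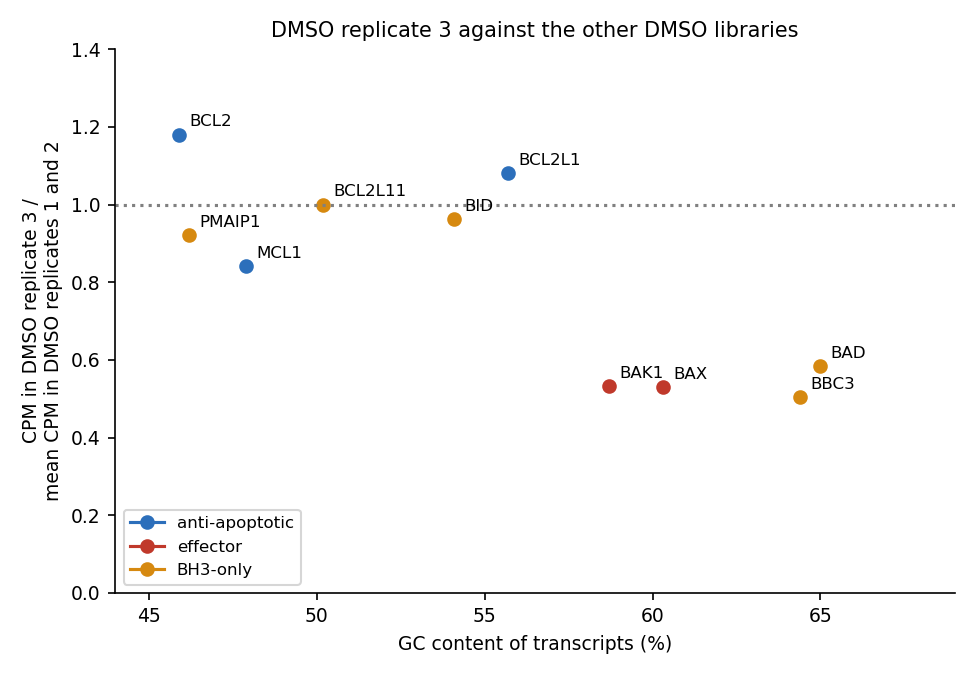
CPM in DMSO replicate 3 divided by the mean CPM of DMSO replicates 1 and 2 (y axis) against the mean GC content of the gene's transcripts in percent (x axis), 1 point per member. BAX, BAK1, BBC3 and BAD form a group at 0.504 to 0.583, below the other 6 at 0.842 to 1.18.

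Leaving DMSO replicate 3 out changed how many members passed, though not the call by both thresholds. The biological coefficient of variation of the edgeR fit was 0.139 with all libraries and 0.0421 without it. Without it, 9 members had an adjusted p under 0.05 (4 higher, 5 lower, all but BBC3), against 55.2% of the 13053 genes then tested, and 0 passed both thresholds, against 17.5%. The largest absolute log2 fold change of a member was then 0.41, for BCL2. When each library's trend on GC content was removed with all 6 libraries kept, 2 members had an adjusted p under 0.05, PMAIP1 (log2 fold change 0.33) and BID (-0.25), against 18.3% of all genes, and BAK1 was at 0.52 with an edgeR adjusted p of 0.0580. With both changes made together, 7 members had an adjusted p under 0.05, 5 higher (BCL2, BAK1, BBC3, PMAIP1 and BCL2L11) and 2 lower (MCL1 and BID), against 45.9% of all genes, and BAX was at -0.06 (edgeR adjusted p 0.294). PMAIP1 and BID thus had an adjusted p under 0.05 in each of these 4 edgeR fits, whereas the direction of BCL2L1, BAX, BAD and BBC3 depended on the fit.

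**Figure D4:**
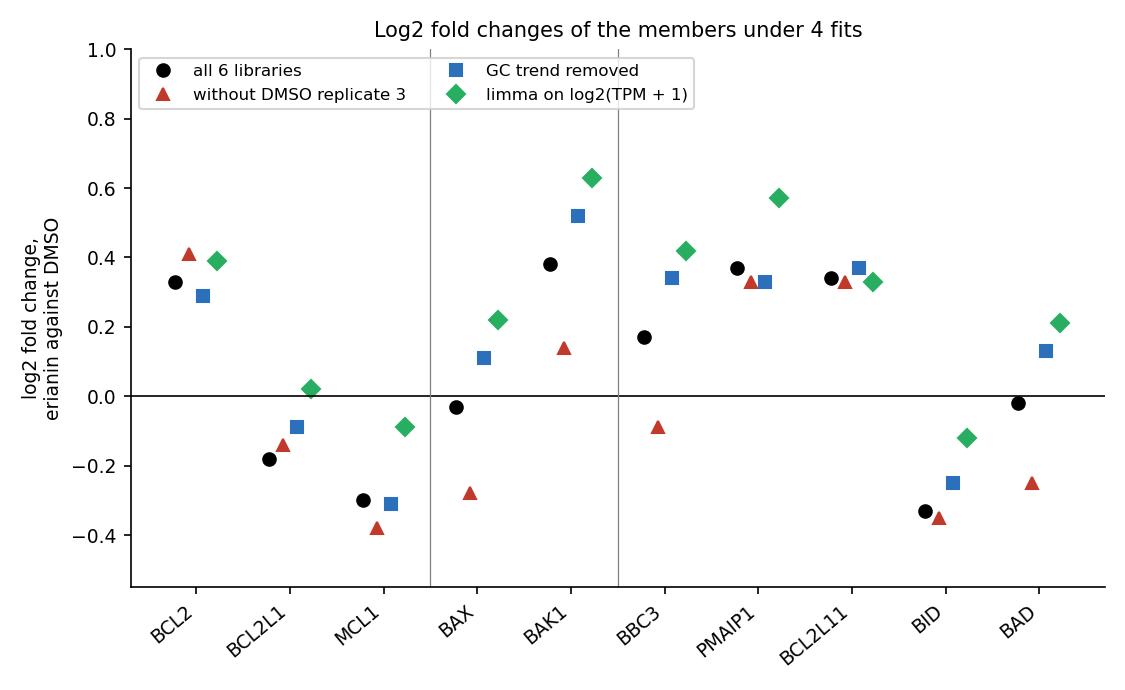
Log2 fold change, erianin against DMSO (y axis), of each member under 4 fits: edgeR with all 6 libraries, edgeR without DMSO replicate 3, edgeR with the GC trend removed, and limma on log2(TPM + 1). BCL2, BAK1, PMAIP1 and BCL2L11 are above 0 and MCL1 and BID below 0 in every fit shown, and the points of BCL2L1, BAX, BBC3 and BAD fall on both sides of 0; under limma the median of all genes is 0.18.

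Levels of different members were compared in TPM, which is scaled to gene length. With DMSO the order of mean TPM was MCL1 (497.2), PMAIP1 (286.5), BCL2L1 (149.8), BAX (73.0), BAK1 (56.7), BAD (27.2), BBC3 (24.0), BID (13.7), BCL2 (2.43) and BCL2L11 (1.25). The ranges of the DMSO libraries overlapped between BAX and BAK1, between BAD and BBC3, and between BBC3 and BID, with DMSO replicate 3 the lowest library for each of these genes. Within each of the 3 DMSO libraries the order of these neighbours was the same as in the means. With erianin the order was MCL1 (462.8), PMAIP1 (423.7), BCL2L1 (152.1), BAK1 (83.9), BAX (81.1), BBC3 (30.7), BAD (30.4), BID (12.5), BCL2 (3.51) and BCL2L11 (1.82). There the ranges overlapped between BAK1 and BAX, where BAK1 was above BAX in all 3 libraries, and between BBC3 and BAD, where BBC3 was above BAD in 2 of the 3. MCL1 and PMAIP1, the antagonist and its BH3-only partner, headed the order in both groups, and BCL2 and BCL2L11 closed it.

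The balance between members was read as the ratio of TPM within a library, which cancels the library's total. PMAIP1 to MCL1 was 0.565, 0.558 and 0.615 in the DMSO libraries and 0.929, 0.853 and 0.970 in the erianin libraries. The groups did not overlap, and the mean ratio was 1.58 times as high with erianin, with DMSO replicate 3 the DMSO library nearest to the erianin group. BID to PMAIP1 was 0.0455 to 0.0494 with DMSO and 0.0285 to 0.0305 with erianin, again without overlap. BAK1 to BAX was 0.783, 0.769 and 0.782 with DMSO and 1.02, 1.07 and 1.01 with erianin, and here DMSO replicate 3 did not stand apart from the other DMSO libraries. BAX to BCL2 was 37.5, 36.9 and 16.6 with DMSO and 23.9, 21.7 and 23.8 with erianin, so that the groups overlapped, and in 2 of the 3 DMSO libraries the ratio was above all erianin libraries. BCL2L11 to BCL2 and BCL2L1 to MCL1 overlapped as well. These ratios are descriptions, with no test.

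Of the summed TPM of the 10 members, the 3 anti-apoptotic genes held 56.4%, 56.2% and 60.1% in the DMSO libraries and 47.9%, 49.8% and 46.9% with erianin. The 5 BH3-only genes held 30.6%, 31.2% and 31.8% with DMSO and 39.1%, 37.7% and 40% with erianin. The effectors held 13.0%, 12.6% and 8.07% with DMSO and 12.4% to 13.1% with erianin. The share of RNA thus lay more with the BH3-only genes in every erianin library, where PMAIP1 alone makes up most of that class. By log2 fold change with all 6 libraries the medians were -0.18 for the anti-apoptotic members, 0.18 for the effectors and 0.17 for the BH3-only members. The last 2 medians rested on DMSO replicate 3. Without it, BAX was at -0.28 and BAK1 at 0.14. Of the BH3-only members, BBC3 (-0.09), BID (-0.35) and BAD (-0.25) were then below 0, and PMAIP1 and BCL2L11 were both at 0.33. BCL2 (0.41), BCL2L1 (-0.14) and MCL1 (-0.38) kept their directions. In neither fit did the classes stand apart.

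**Figure D5:**
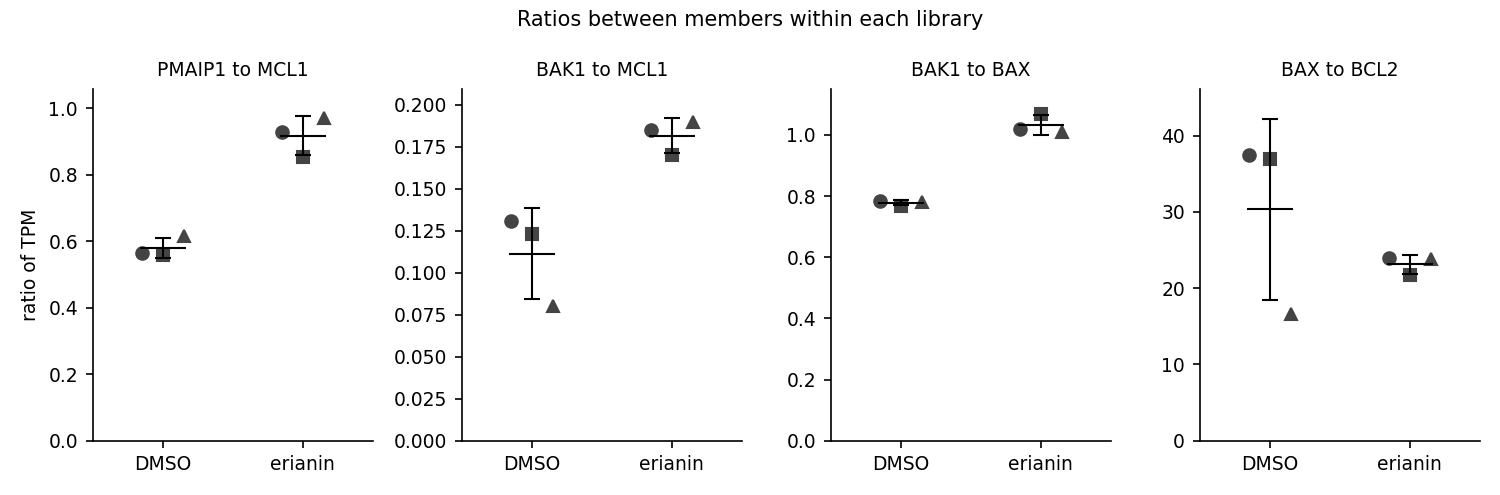
Ratio of TPM between 2 members within each library (y axes, from 0) for 4 pairs; points are libraries, horizontal lines means and bars the SD. PMAIP1 to MCL1, BAK1 to MCL1 and BAK1 to BAX are higher in every erianin library than in any DMSO library, and BAX to BCL2 overlaps.

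The largest differences in the family lay outside the 10 members, while the typical size was close. The median absolute log2 fold change was 0.34 over the 11 further genes tested, 0.31 over the 10 members and 0.22 over all tested genes. Of 13 further family genes 11 passed the filter on low counts, and 8 of these had a log2 fold change above 0. Both thresholds were passed by 2 of the 11, both higher with erianin, against 8.73% of all tested genes (5.37% higher). BMF, a BH3-only gene whose protein is known to sit on the cytoskeleton, was at 0.862, 0.555 and 0.578 CPM with DMSO and at 1.73, 1.60 and 1.66 CPM with erianin (log2 fold change 1.34, SE 0.24, edgeR adjusted p 0.0139). Its lowest count was 18, a counting error of at least 23.6%. BCL2A1, an anti-apoptotic gene known as a target of NF-kB, was at 5.42, 5.30 and 6.94 CPM with DMSO and at 9.37, 9.36 and 10.3 CPM with erianin (log2 fold change 0.71, SE 0.14, edgeR adjusted p 0.0178). Thus both family genes that passed both thresholds lay outside the 10, and they belong to opposing classes.

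These 2 calls needed most of the libraries. BMF passed both thresholds without DMSO replicate 1 or 3 (edgeR adjusted p 0.0246 and 0.00144) and missed the adjusted p without DMSO replicate 2 (0.0518) or any erianin library (0.0669 to 0.0733). BCL2A1 passed only without DMSO replicate 3 (8.70e-07), and its adjusted p was 0.0616 to 0.0958 without any other library. BCL2L13, a mitophagy receptor, passed the adjusted p alone, at a log2 fold change of -0.29 (edgeR adjusted p 0.0296, and up to 0.145 without 1 library). The mitophagy genes BNIP3 and BNIP3L were at 0.29 and 0.36 (edgeR adjusted p 0.0515 and 0.0587), with every erianin library above every DMSO library. HRK, a BH3-only gene, was at 0.61 (0.130), BIK at 0.47 (0.282) and BOK at -0.34 (0.23). BCL2L10 was at -0.31 (0.495), BCL2L12 at 0.03 (0.922) and BCL2L2 at 0.01 (0.963). With all 6 libraries none of these genes passed. Without DMSO replicate 3, BOK was at -0.54 (SE 0.05, edgeR adjusted p 4.61e-11) and passed both thresholds as lower with erianin. In that fit 17.5% of all genes passed both. BCL2L14 and BCL2L15 had at most 8 counts in any library and were not tested.

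Downstream of the pore, 11 genes of the apoptosome, the caspases and the inhibitor of apoptosis (IAP) family were tested. Both thresholds were passed by 1 of them, against 8.73% of all tested genes. BIRC3, which encodes the IAP protein cIAP2, rose from 24.8, 23.3 and 33.9 CPM to 44.5, 40.8 and 46.6 CPM (log2 fold change 0.69, SE 0.15, edgeR adjusted p 0.0245). It passed without DMSO replicate 3 (7.69e-12) and had an adjusted p of 0.0741 to 0.114 without any other library. CYCS, which encodes cytochrome c, was at a log2 fold change of 0.45 (edgeR adjusted p 0.0567) and BIRC5 at 0.14 (0.590). The median over the 11 genes was 0.24 against 0.00 over all tested genes, and 10 of the 11 were above 0.

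Among 14 transcription factors known to act on BCL2 family genes, 3 passed both thresholds, 2 of them higher with erianin. Over all tested genes 8.73% passed both, 5.37% higher. ATF3 rose from 13.3, 12.3 and 9.12 CPM to 40.3, 42.4 and 39.1 CPM (log2 fold change 1.82, SE 0.15, edgeR adjusted p 0.00105). DDIT3, which encodes the stress factor CHOP, rose from 39.3, 38.5 and 26.2 CPM to 81.5, 84.9 and 82.5 CPM (log2 fold change 1.26, SE 0.15, edgeR adjusted p 0.00410). Both passed in each of the 6 fits that left out a library. ATF4 was at -0.34 (edgeR adjusted p 0.0233, and up to 0.120 without 1 library), STAT3, singled out after its value was seen, at 0.29 (0.0286, and up to 0.139), and EGR1 at -0.30 (0.158). The differences in ATF3 and DDIT3 were larger than that of any of the 10 members, including PMAIP1 and BBC3.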

How the data were processed

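Raw counts of reads per gene were deposited by the authors, with a second table that gives TPM values for the same 6 libraries. Per the submitters' processing notes the tools were fastp 0.23.2, STAR 2.7.10, featureCounts 2.0.1 and StringTie 2.2.1 on GRCh38/hg38, with no role or order given. The annotation release and the use of strand are not given in the sources used here. The paper names the BGISEQ-500 platform and DESeq2. The deposited TPM columns sum to 59.1% to 78.3% of what a complete TPM column would hold, lowest in DMSO replicate 3.

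Of 65807 rows, 26480 carry no identifier and hold 0.00385% to 0.00515% of the reads counted, and neither library sizes nor tests include them. Identifiers were matched to symbols with the reference table, and the row with most counts took the symbol where several shared one. Counts were tested with edgeR 4.0.16 in R 4.3.3 (TMM, filterByExpr by group, glmQLFit and glmQLFTest, no replicate term), fitted on all rows that passed the filter with Benjamini-Hochberg adjustment over all of them. Standard errors came from the quasi-likelihood F statistic. Calls needed an adjusted p below 0.05 together with a log2 fold change beyond 0.5 in either direction. CPM values are TMM-scaled. GC content is the mean over a gene's transcripts in GENCODE 29, and was known for 98.9% of tested genes.

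Alternatives were DESeq2 1.42.0, RLE or upper-quartile factors, the omission of the filter on low counts, a minimum of 10 counts per library, limma 3.58.1 on log2(TPM + 1) where the mean TPM reached 1, that fit with 0.1 as pseudocount or with no filter, a replicate block, a GC offset (loess, span 0.5), both together, each library left out, no fold threshold and a threshold of 1. The fit steps were tested on simulated counts with 200 changed genes.

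The members and gene lists were chosen with earlier results of these data known. Genes named were the 10 members, the other family genes that passed the filter, and of each further list up to 4 called genes by smallest adjusted p and the 2 with the highest mean TPM. Some genes that this rule selects are left out of the text. Tables and plots were made in Python 3.11.15 with pandas 2.3.3 and matplotlib 3.10.9. Protein blots, flow cytometry, imaging and mouse experiments were not analysed here.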

Additional observations from a re-analysis of the deposited data

How the results depend on the processing

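None of the 10 members passed both thresholds with all libraries (0 higher, 0 lower), in DESeq2, with other scaling factors or count filters, with the GC offset, or in the fits that left out a library (0 in each). On log2(TPM + 1) limma called 1 member (1 higher, PMAIP1 at 0.57, also without the filter), and with a pseudocount of 0.1 it called 2 (2 higher, PMAIP1 and BCL2 at 0.51); on those scales the median of all genes was 0.18, 0.12 and 0.20, so the values are relative to a shifted centre. Without a fold threshold 2 members passed, 1 higher and 1 lower. Shared replicate numbers did not act as pairs: same-numbered libraries' deviations correlated at 0.00138, 0.0253 and -0.0329. With the replicate block 0 members were called and 0 had an adjusted p under 0.05, against 2 without it.

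Of 180 member values under 18 alternatives, 151 kept direction and side of the threshold, 4 became calls and 25 turned direction. BCL2L1 (-0.18) was at 0.02 in the 3 TPM fits and with the GC offset and DMSO replicate 3 left out, a combination chosen after seeing the data. BAX (-0.03) was at 0.03 with upper-quartile factors and with the replicate block, 0.22 or 0.23 on TPM, 0.11 with the GC offset, 0.14 with offset and block, and -0.28 to 0.14 with a library left out. BAD (-0.02) was at 0.03 with upper-quartile factors and with the GC offset without DMSO replicate 3, 0.01 with the block, 0.21 or 0.22 on TPM, 0.13 with the GC offset, 0.14 with offset and block, and -0.25 to 0.12 with a library left out. BBC3 (0.17) was at -0.09 to 0.35 with a library left out, lowest without DMSO replicate 3. The cause was not tested. Among the members the lowest counts were those of BCL2 and BCL2L11, and with 3 libraries a group the spread was set largely by DMSO replicate 3.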

Other observations

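A further 3 lists tied to BCL2 family proteins held no gene that passed both thresholds, against 8.73% of all tested genes. Of 6 genes for ubiquitin ligases and a deubiquitinase of MCL1, 5 were tested. MARCHF5 was listed at 0 in every library, and the counts do not say whether it was silent or its reads were not assigned. CDC20, a mitotic activator of the anaphase-promoting complex, was at a log2 fold change of 0.28 (SE 0.10, edgeR adjusted p 0.0947). HUWE1, the ligase also known as MULE, was at -0.27 (SE 0.09, edgeR adjusted p 0.0936). For both CDC20 and HUWE1 the groups did not overlap. Of 8 genes for outer membrane channels and mitochondrial shape, VDAC1 was at -0.06 (edgeR adjusted p 0.629) and MTCH2, the receptor that recruits cleaved BID, at 0.09 (0.687), and the median was 0.06 against 0.00 over all tested genes.

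Of 16 genes for BAD kinases, calcineurin and 14-3-3 proteins, 8 were above and 8 below 0, with a median of 0.01. The 14-3-3 genes YWHAG and YWHAE, the most abundant of the list per length, were at 0.14 (edgeR adjusted p 0.241) and -0.12 (0.466). AKT2 and PIM2, singled out after their values were seen, passed the adjusted p alone: AKT2, a kinase that phosphorylates BAD, went from 225.5, 245.2 and 186.6 CPM with DMSO to 167.4, 167.5 and 165.0 CPM with erianin (log2 fold change -0.39, edgeR adjusted p 0.0421), and PIM2 from 34.4, 34.0 and 31.6 CPM to 40.5, 42.3 and 43.2 CPM (0.33, 0.0367). They were the only 2 of the 16 at that threshold, against 14.9% of all tested genes. Without 1 library the adjusted p rose to as much as 0.162 for AKT2 and 0.172 for PIM2.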
